A study of Mus musculus with 12 samples.

Results

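The thrombospondins are a family of secreted matricellular glycoproteins, and the 4 genes whose symbol in the table is Thbs1, Thbs2, Thbs3 or Thbs4 were followed here among 54833 genes. All 4 passed the filter on low counts, which kept 21495 genes for testing. Thbs1 was chosen because its rise after intracerebral hemorrhage (ICH) was among the largest of these data. Its differences between ICH and sham samples are therefore given as a description, without a test, and the other members were taken because they belong to the same family. The RNA came from perihematomal tissue of the ipsilateral caudate putamen of male wild-type C57BL/6 mice. The age was 8 to 10 weeks in the young and 20 to 22 months in the aged groups. ICH was made with type IV collagenase, sham mice received saline, and tissue was taken at 24 h in both. Crossing age with surgery gave 4 groups of 3 samples, called young sham, aged sham, young ICH and aged ICH. Each sample pooled 2 to 3 mice, so the spread between samples is one between pools and not between animals. Collagenase lyses the matrix of vessel walls, which makes the bleed a model of vessel rupture by an enzyme and not of spontaneous rupture.

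Thrombospondins are released into the extracellular space, where they bind cell surface receptors, proteases and growth factors rather than build the scaffold of the matrix. Thrombospondin-1 and thrombospondin-2 form trimers and carry the type 1 repeats that bind CD36 on endothelium and inhibit angiogenesis, and thrombospondin-1 also activates latent TGF-β and binds CD47. Thrombospondin-3 and thrombospondin-4 form pentamers and lack the type 1 repeats. In the brain, astrocytes secrete thrombospondins that promote the formation of excitatory synapses through the calcium channel subunit α2δ-1, and platelets store thrombospondin-1 in their α-granules.

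All 4 genes are protein coding on GRCm38. Thbs1 (ENSMUSG00000040152) lies at chr2:118111876-118127133 on the plus strand, and its longest transcript has 22 exons. Thbs2 (ENSMUSG00000023885) lies at chr17:14665500-14694235 on the minus strand. Thbs3 (ENSMUSG00000028047) lies at chr3:89215180-89226837 on the plus strand. Thbs4 (ENSMUSG00000021702) lies at chr13:92751590-92794818 on the minus strand. The whole 11658 bases of the Thbs3 gene are spanned by Mtx1 on the opposite strand, and the exons of both genes share 318 bases. Exons of Thbs1 share 208 bases with Gm29233, a long noncoding RNA on the opposite strand. No strand setting of the counting is known, so reads in shared bases could belong to either gene. Gm29233 had 0 counts in all 12 samples, and Mtx1 is compared with Thbs3 beside its result.

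The 250 bases upstream of the start are shown for Thbs2, Thbs3 and Thbs4, the members found in the RefSeq promoter table (GRCm38.p6, 3 of 4 matched, Thbs1 without an entry). They are a description, and whether the changes of these members after ICH differ from each other was not tested. Each is written 5′ to 3′ on the strand of its gene, and capitals mark matches, none overlapping, that a search of both strands found. The letters searched were CCAAT for the box of that name. Those of the TATA box were TATAAA. Those of the GC box were GGGCGG. The windows span chr17:14694263-14694512, chr3:89214930-89215179 and chr13:92794819-92795068, in the order printed.
Thbs2: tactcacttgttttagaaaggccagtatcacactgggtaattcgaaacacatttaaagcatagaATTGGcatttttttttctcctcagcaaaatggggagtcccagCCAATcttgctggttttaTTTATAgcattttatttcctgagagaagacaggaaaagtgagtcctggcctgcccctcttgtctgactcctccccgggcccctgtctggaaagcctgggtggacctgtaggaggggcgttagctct
Thbs3: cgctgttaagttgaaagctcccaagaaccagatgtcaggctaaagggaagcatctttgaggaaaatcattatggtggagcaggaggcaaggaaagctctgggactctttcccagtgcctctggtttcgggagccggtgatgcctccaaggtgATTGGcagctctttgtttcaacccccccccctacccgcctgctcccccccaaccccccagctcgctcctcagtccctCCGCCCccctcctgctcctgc
Thbs4: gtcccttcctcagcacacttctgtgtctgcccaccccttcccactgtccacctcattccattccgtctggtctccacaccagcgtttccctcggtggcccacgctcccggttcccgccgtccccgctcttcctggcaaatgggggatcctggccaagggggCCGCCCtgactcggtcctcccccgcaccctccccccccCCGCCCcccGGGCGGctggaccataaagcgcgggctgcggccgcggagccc
The Thbs2 window held 2 CCAAT boxes and 1 TATA box, the Thbs3 window 1 CCAAT box and 1 GC box, and the Thbs4 window 3 GC boxes. Windows with these letters were common. Of 32851 promoters of the same length, 33.8% held a CCAAT box, 32.7% a GC box and 12.4% a TATA box. No match was found in any of the 3 windows for the AP-1 site TGANTCA, the hypoxia response core ACGTG or the CArG box, which stood in 6.75%, 16.6% and 1.47% of all promoters. The GC content of the windows was 46.8% for Thbs2, 58.8% for Thbs3 and 70.8% for Thbs4.

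The depth ranged from 28410896 to 37785160 reads counted on genes per sample. Markers of striatal neurons were detected in every sample, with a summed level of 1513 to 3024 CPM (counts relative to a library size normalized by TMM) in sham samples and 325 to 1912 CPM in ICH samples. Markers of the choroid plexus, a tissue outside the caudate putamen, summed to 8.55 to 465 CPM in 9 samples and to over 1000 CPM in 3, which were young ICH replicate 3 and aged ICH replicates 1 and 2. The results were also computed without these 3 samples, which left 1 aged ICH sample, assumed to vary like the other groups. A call lost there in aged mice cannot be told apart from the smaller group. In bulk tissue, more cells of a type and more RNA per cell cannot be told apart.

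Thbs1, whose product opposes angiogenesis and activates TGF-β, was the member with the large difference between ICH and sham tissue. Its FPKM, a level corrected for the length of the gene's transcripts and the depth of the sample, was 0.514, 0.632 and 0.387 in the young sham samples. In the young ICH samples it was 7.35, 10.9 and 13.7 FPKM. The aged sham samples held 1.55, 0.573 and 2.55 FPKM, and the aged ICH samples 16.8, 16.4 and 24.6 FPKM. Every ICH sample was above every sham sample at both ages. Aged sham replicate 2 was at the level of the young sham samples, and the other 2 aged sham samples were above all of them. Group means were 0.511 ± 0.123 FPKM in young sham, 10.6 ± 3.17 in young ICH, 1.56 ± 0.987 in aged sham and 19.3 ± 4.62 in aged ICH (SD, n = 3). As counts, the gene had 74 to 127 reads per young sham sample and 2827 to 4606 per aged ICH sample.

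**Figure D1:**
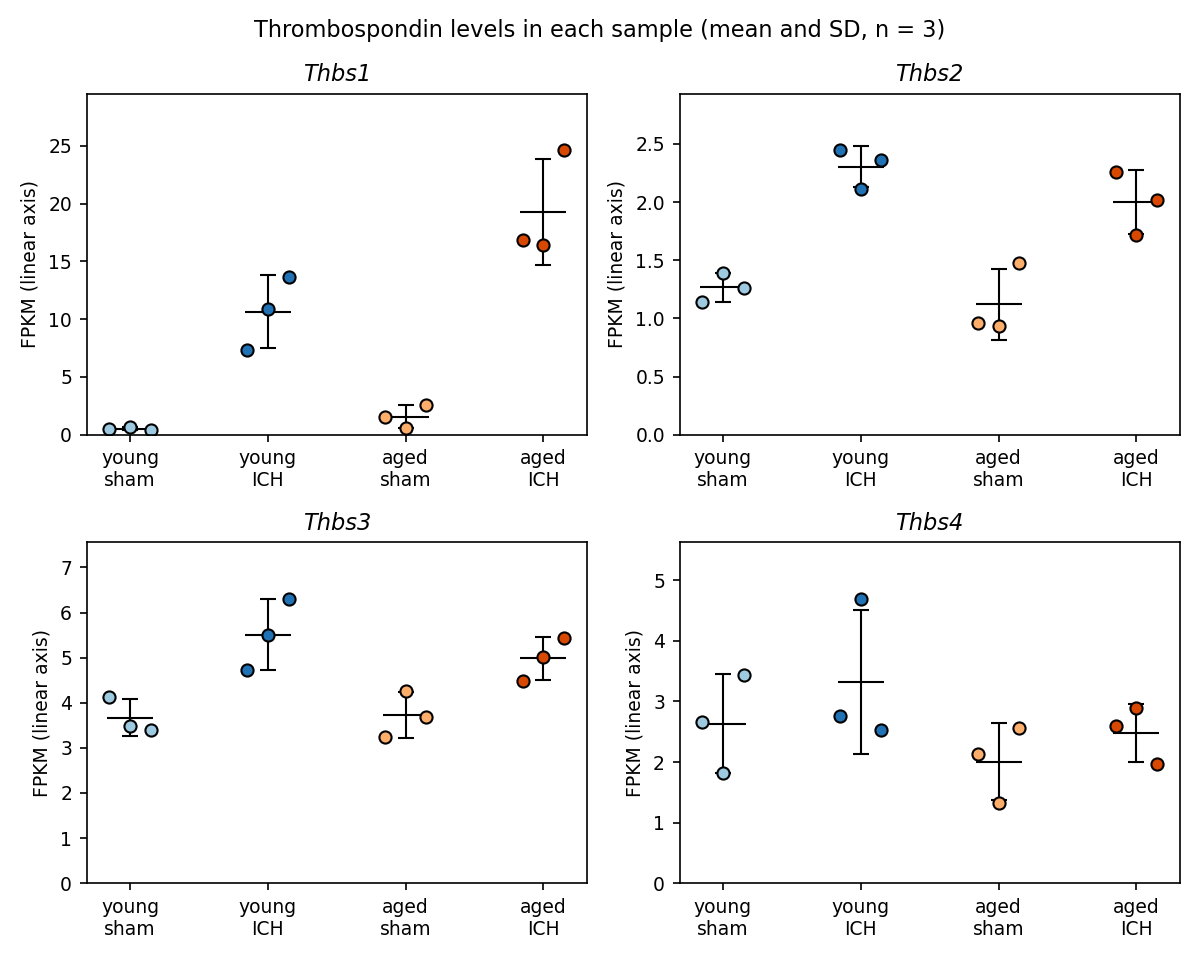
FPKM of each thrombospondin (linear axes from 0) in every sample of the 4 groups. Points are samples, and the bar with whiskers is the mean and SD (n = 3). Thbs1 ran from 0.387 to 2.55 FPKM in the sham samples and from 7.35 to 24.6 in the ICH samples, while the Thbs4 groups overlapped.

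As a description of the values that chose it, Thbs1 had a log2FC of 4.28 ± 0.45 (SE) in young ICH vs. young sham, which is 19.5-fold, and of 3.56 ± 0.42 in aged ICH vs. aged sham, which is 11.8-fold. Ranked by log2FC among the 21495 genes, it was at place 7 in young mice, between Fga at 4.42 and Hmga2 at 4.21, and at place 14 in aged mice, between Sult1c2 at 3.71 and Wdr86 at 3.54. These neighbours had mean log2 CPM of −1.66 to 0.66, against 4.37 for Thbs1. Among the 8206 genes with a mean log2 CPM at or above that of Thbs1, its place was 1 in young and 2 in aged mice. On a linear scale the mean level was 60.1 CPM higher after ICH in young mice and 103.5 CPM higher in aged mice. With the samples of over 1000 CPM of choroid plexus markers left out, the log2FC was 4.07 in young and 3.92 in aged mice.

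The age comparisons did not choose Thbs1 and were tested. Aged sham samples were higher than young sham samples by 1.56 ± 0.45 on the log2 scale (95% interval 0.59 to 2.54), which did not pass over all genes (edgeR, adjusted *P* = 0.223), and the groups overlapped through aged sham replicate 2. Leaving out 1 sample at a time moved this difference from 1.02 to 1.95, and its adjusted *P* over all alternatives ran from 0.0537 to 0.586. Few genes passed in this comparison, 0.102% of those tested. After ICH, aged samples were higher than young samples by 0.84 ± 0.37 (95% interval 0.02 to 1.65), which did not pass either (edgeR, adjusted *P* = 0.512), against 0.0558% of genes called. Here all 3 aged ICH samples were above all 3 young ICH samples, an order seen in the same direction for 6.9% of genes. When the same samples were left out, the difference was 1.40 ± 0.54 (adjusted *P* = 0.733 with edgeR), with 1 aged ICH sample left.

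The interaction, which is the log2FC after ICH in aged mice minus that in young mice, is built from the comparisons that chose Thbs1. It was −0.72 ± 0.58 for Thbs1, as a description. It moved from −1.11 when aged sham replicate 2 was left out to −0.18 when replicate 3 of that group was, and it was −0.15 without the 3 samples with choroid plexus markers. With limma on log2(FPKM + 1), which is another test on another unit, it was 0.13. For the other members it was −0.013 ± 0.24 for Thbs2, −0.15 ± 0.18 for Thbs3 and −0.014 ± 0.43 for Thbs4, and the 95% intervals reached from −0.53 to 0.50, from −0.55 to 0.25 and from −0.96 to 0.94. These values were 0.016, 0.09 and −0.51 without the 3 samples with choroid plexus markers. No gene of the whole table passed the interaction with edgeR. At an unadjusted *P* under 0.05 there were 606 genes, DESeq2 called 1 and limma 0.

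Thbs2 encodes the other trimeric, antiangiogenic member. Its FPKM was 1.14, 1.39 and 1.27 in young sham and 2.44, 2.11 and 2.36 in young ICH samples. In aged mice it was 0.960, 0.932 and 1.47 in sham and 2.26, 1.71 and 2.02 in ICH samples. At both ages the ICH samples were all above the sham samples, an order seen in the same direction for 18.5% of genes in young and 17.8% in aged mice. Thbs2 rose by 0.78 ± 0.17 on the log2 scale in young ICH vs. young sham, 1.71-fold (edgeR, adjusted *P* = 0.00913), where 9.89% of genes were called higher. It rose by 0.76 ± 0.17 in aged ICH vs. aged sham, 1.70-fold (edgeR, adjusted *P* = 0.015), where 7% were called higher. The aged call was lost without aged ICH replicate 1 (0.66, adjusted *P* = 0.0719) or when either of the aged sham samples 1 (0.67, adjusted *P* = 0.063) and 2 (0.65, adjusted *P* = 0.0587) was left out, and without the 3 samples with choroid plexus markers over 1000 CPM (0.79, 0.114). The young call stood in each of these refits.

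The age comparisons of Thbs2 gave −0.22 ± 0.17 in sham (adjusted *P* = 0.642) and −0.23 ± 0.16 after ICH (adjusted *P* = 0.694, both edgeR). The groups overlapped in both.

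Thbs3, a pentameric member without type 1 repeats, had the highest mean FPKM of the family in sham tissue. Its samples held 4.13, 3.48 and 3.40 FPKM in young sham and 4.72, 5.51 and 6.30 in young ICH. The aged samples held 3.24, 4.26 and 3.68 FPKM in sham and 4.48, 5.02 and 5.44 in ICH. In CPM, which the test used, the young groups did not overlap and the aged groups did, since aged sham replicate 2 had 20.91 CPM and aged ICH replicate 1 had 20.88. Thbs3 rose by 0.49 ± 0.13 in young ICH vs. young sham, 1.41-fold (edgeR, adjusted *P* = 0.0216). In aged ICH vs. aged sham the log2FC was 0.35 ± 0.13 (95% interval 0.06 to 0.63) and did not pass (edgeR, adjusted *P* = 0.0997). The difference between these effects is the interaction given above, which did not pass.

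The young call of Thbs3 was lost without young ICH replicate 3 (0.40, adjusted *P* = 0.0818), young sham replicate 2 (0.46, 0.0844) or young sham replicate 3 (0.44, 0.077), and without the 3 samples with choroid plexus markers (0.40, 0.0935). The criterion of the study was FC > 1.5 or < 0.67 with an unadjusted *P* under 0.05 from DESeq2. Applied to edgeR here, Thbs3 would not be a DEG, because its fold stays under 1.5. By that criterion 12.2% of genes were DEGs in young ICH vs. young sham and 10.1% in aged ICH vs. aged sham. Mtx1, the gene on the opposite strand, had a log2FC of 0.0085 ± 0.085 in young and 0.11 ± 0.086 in aged mice (edgeR, adjusted *P* = 0.959 and 0.418). Between ages, Thbs3 gave −0.021 ± 0.13 in sham, which turned to 0.022 without scaling factors and 0.016 with limma, and −0.17 ± 0.13 after ICH (edgeR, adjusted *P* = 0.967 and 0.715). The latter was 0.06 without the samples with choroid plexus markers.

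Thbs4 encodes the pentameric member known from tendon, heart and astrocytes. Its FPKM was 2.66, 1.81 and 3.44 in young sham, 2.76, 4.69 and 2.53 in young ICH, 2.13, 1.32 and 2.57 in aged sham, and 2.60, 2.90 and 1.96 in aged ICH samples. All pairs of groups overlapped. Young ICH replicate 2 was the highest of the 12 samples and aged sham replicate 2 the lowest. The log2FC was 0.25 ± 0.30 in young ICH vs. young sham (95% interval −0.41 to 0.92) and 0.24 ± 0.31 in aged ICH vs. aged sham (95% interval −0.44 to 0.91), and neither passed (edgeR, adjusted *P* = 0.606 and 0.656). Without young ICH replicate 2 the young value was −0.09. In aged mice the level was lower by −0.43 ± 0.31 in sham and −0.45 ± 0.31 after ICH on the log2 scale, which did not pass (edgeR, adjusted *P* = 0.602 and 0.677). Without the 3 samples with choroid plexus markers, Thbs4 was 0.42 in young and −0.09 in aged ICH vs. sham, and −0.95 in aged ICH vs. young ICH (edgeR, adjusted *P* = 0.453, 0.934 and 0.756).

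**Figure D2:**
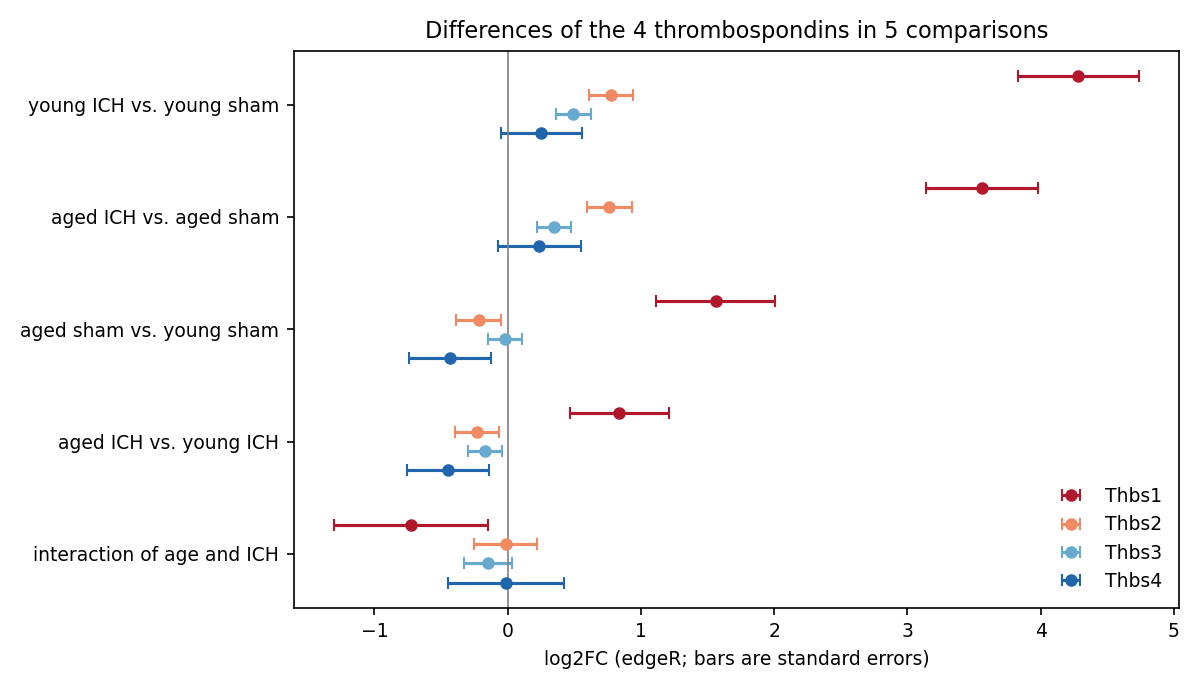
log2FC with SE (horizontal axis) of the 4 thrombospondins (colours) in 5 comparisons. Thbs1 stood at 4.28 and 3.56 in the ICH comparisons, where its values are a description. Thbs2 stood at 0.78 and 0.76, and Thbs4 was within 1 SE of 0 in both. The age difference of Thbs3 in sham changed sign without scaling factors, and the Thbs1 interaction with limma on log2(FPKM + 1).

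The order of the members by FPKM differed between sham and ICH tissue. In young sham samples it was Thbs3 at 3.67 ± 0.400, Thbs4 at 2.63 ± 0.813, Thbs2 at 1.27 ± 0.124 and Thbs1 at 0.511 ± 0.123 FPKM (SD, n = 3). Only the neighbours Thbs3 and Thbs4 overlapped between samples. In aged sham samples Thbs3 at 3.73 ± 0.509 was above the rest, and Thbs4 at 2.01 ± 0.632, Thbs1 at 1.56 ± 0.987 and Thbs2 at 1.12 ± 0.305 overlapped. In young ICH samples Thbs1 was first, followed by Thbs3 at 5.51 ± 0.790, Thbs4 at 3.33 ± 1.19 and Thbs2 at 2.30 ± 0.175 FPKM, and no neighbours overlapped, although the highest Thbs4 sample (4.69) was close to the lowest Thbs3 sample (4.72). In aged ICH samples Thbs1 was again first, then came Thbs3 at 4.98 ± 0.482, and Thbs4 at 2.49 ± 0.478 and Thbs2 at 2.0 ± 0.274 overlapped.

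The summed FPKM of the 4 genes was 8.08 ± 0.668 in young sham, 21.8 ± 3.99 in young ICH, 8.41 ± 1.66 in aged sham and 28.7 ± 4.58 in aged ICH samples. Thbs1 made up 4.56% to 8.65% of that sum in young sham, 42.5% to 55.0% in young ICH, 8.09% to 24.8% in aged sham and 63.0% to 72.3% in aged ICH samples. The share of Thbs3, the first member in sham tissue, was on average 45.5% in young sham and 45.7% in aged sham, and 25.5% and 17.5% in the ICH groups. Its level did not fall after ICH, so this lower share came with the larger sum. Since Thbs1 was chosen for its rise, these shares are a description and were not tested.

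**Figure D3:**
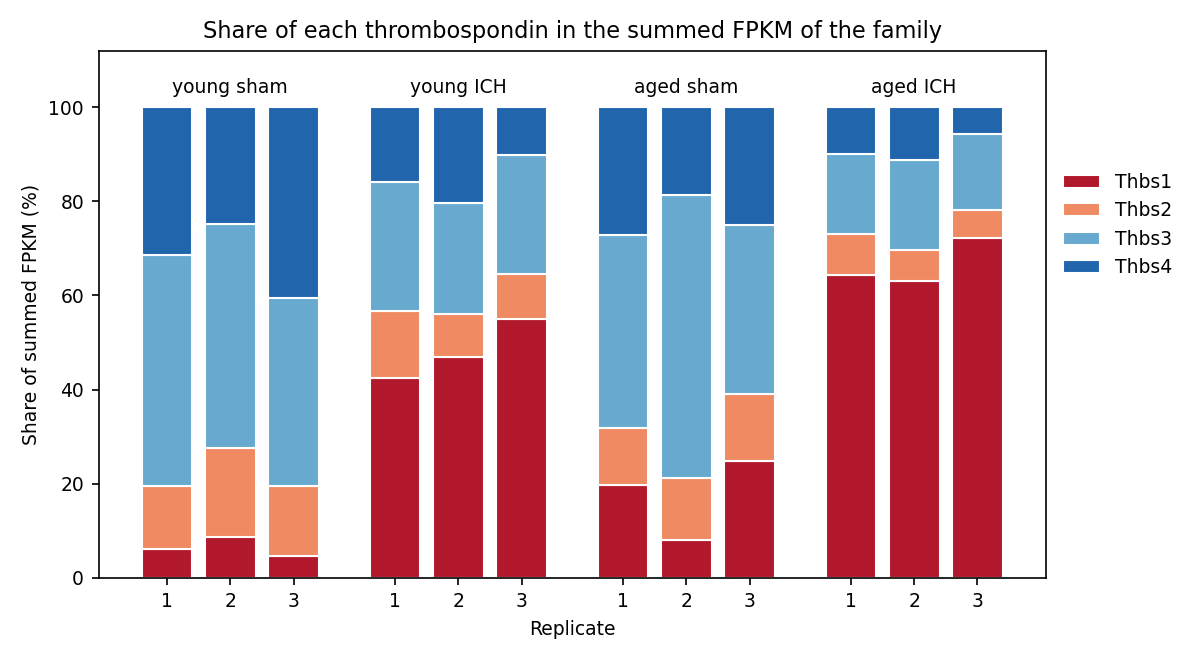
Share of each thrombospondin in the summed FPKM of the 4 genes (percent, from 0 to 100) in every sample. Each bar is a sample, grouped by age and surgery. The Thbs1 share was at most 24.8% in sham samples and at least 42.5% in ICH samples.

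Comp, which encodes thrombospondin-5 and does not carry the family symbol, had 6 to 23 reads per sample. Its log2FC was −0.53 ± 0.39 in young and 0.19 ± 0.38 in aged mice (edgeR, adjusted *P* = 0.375 and 0.779).

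Across the 12 samples, the genes with the pattern most like that of Thbs1 were found by the root mean square difference in log2 CPM after each gene was centred on its mean. Among the nearest were Mmp12 at 0.477, Arg1 at 0.510, an unnamed transcript of the authors' annotation at 0.527 and Clec4d at 0.547 log2 units, where Thbs1 itself had an SD of 2.24. Mmp12 is macrophage elastase, Arg1 encodes arginase and Clec4d a C-type lectin of myeloid cells. This is a description over samples that share groups and libraries. The SD of the other members across the samples was 0.271 to 0.464, too small for such a comparison.

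Thrombospondin receptors moved in both directions after ICH. Of 14 receptors and binding partners tested, 4 rose and 3 fell in young ICH vs. young sham, and 3 rose and 3 fell in aged ICH vs. aged sham, where 9.89% and 7% of all genes were called higher, 9.23% and 6.15% lower, and 19.1% and 13.2% in either direction. The median log2FC of the list was −0.002 in young and 0.087 in aged mice, against 0.022 and 0.002 over all genes. Cd36, the receptor of the type 1 repeats on endothelium, macrophages and platelets, rose by 1.58 ± 0.30 in young and 1.97 ± 0.31 in aged mice (edgeR, adjusted *P* = 0.00552 and 0.00534). It was a low gene, with means of 1.53 CPM in young sham, 4.57 in young ICH, 1.10 in aged sham and 4.29 in aged ICH samples. Cd47, the abundant receptor of the C-terminal domain, fell by 0.26 in young mice, from 324 to 269.7 CPM, and by 0.21 in aged mice, from 311 to 269.4 CPM (edgeR, adjusted *P* = 0.0118 and 0.0434).

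Of the integrin subunits that bind thrombospondins, Itgb1 and Itga6 rose at both ages. Itgb1 rose by 0.50 ± 0.10 in young and 0.40 ± 0.10 in aged mice, and Itga6 by 0.60 ± 0.11 and 0.44 ± 0.11 (edgeR, adjusted *P* from 0.00446 to 0.0259). Itga3, which pairs with Itgb1, rose by 0.58 ± 0.11 in young mice and had 0.23 ± 0.11 in aged mice (edgeR, adjusted *P* = 0.00617 and 0.205). Itgav fell by 0.24 in aged mice (edgeR, adjusted *P* = 0.0478) and had −0.15 ± 0.07 in young mice. Itgb3 and Itga4 were not called, with log2FC of −0.02 and 0.05 in young and 0.14 and 0.21 in aged mice, and Itgb3 in young mice was 0.07 without scaling factors.

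Both synaptic partners fell in young mice. Cacna2d1, which encodes α2δ-1, the neuronal receptor for astrocyte thrombospondins, fell by 0.55 in young mice (edgeR, adjusted *P* = 0.0137) and had −0.38 ± 0.13 in aged mice (adjusted *P* = 0.0724). Nlgn1, the postsynaptic neuroligin that binds thrombospondin-1, fell by 0.47 in young and 0.37 in aged mice (edgeR, adjusted *P* = 0.00527 and 0.0207). Summed markers of striatal neurons ran lower in ICH samples as given above, with an overlap in aged mice. No single one of these markers was called with all 12 samples, and their part in these values was not tested. Vldlr and Lrp8, lipoprotein receptors that bind thrombospondin-1 in the migration of neuroblasts, had −0.42 and −0.09 in young and −0.39 and −0.05 in aged mice, and Lrp8 in aged mice was 0.018 without scaling factors. Lrp1 and Calr, the complex that mediates focal adhesion disassembly, were between 0.02 and 0.18 in both comparisons, and none of these 4 genes was called. Vldlr was near the threshold (edgeR, adjusted *P* = 0.0508 in young and 0.0858 in aged mice). It was called lower at both ages without the 3 samples with choroid plexus markers (−0.50 and −0.57, edgeR, adjusted *P* = 0.0115 and 0.0423) and without aged ICH replicate 2 alone (edgeR), and in young mice also without aged ICH replicate 1.

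**Figure D4:**
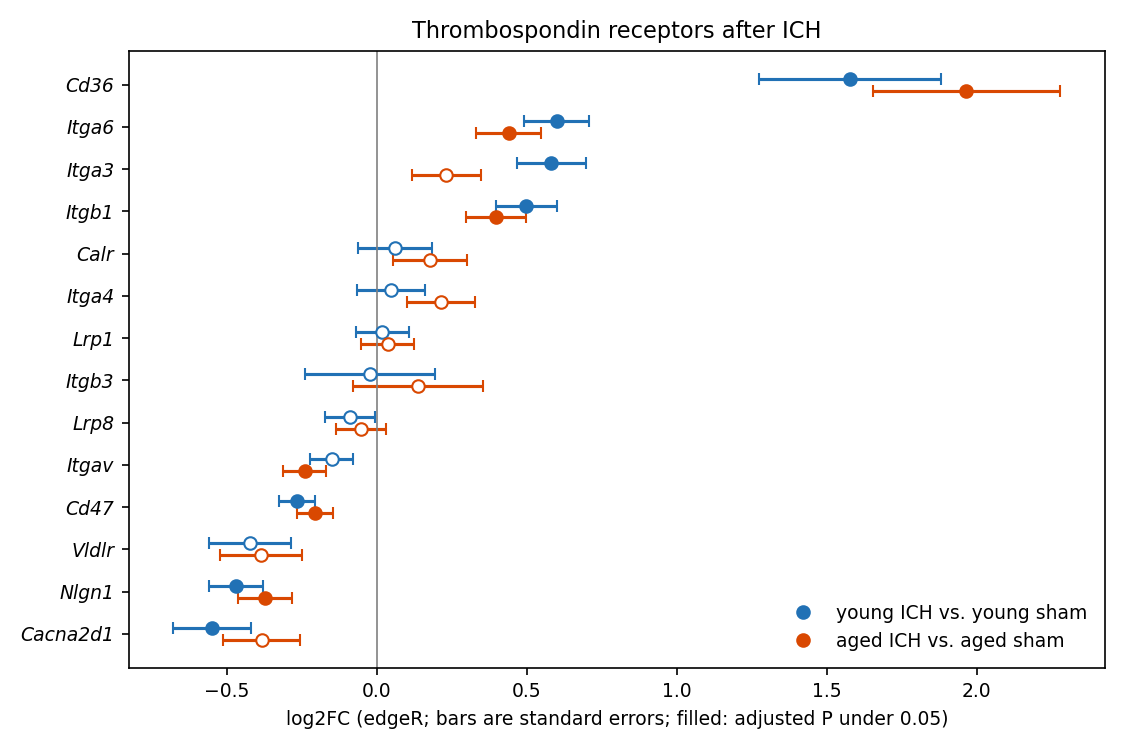
log2FC with SE (horizontal axis) of the 14 thrombospondin receptors and binding partners in young and aged ICH vs. sham. Filled points had an adjusted *P* under 0.05 with edgeR. Cd36 stood at 1.58 and 1.97, Itgb1 and Itga6 between 0.40 and 0.60, and Cacna2d1 and Nlgn1 between −0.55 and −0.37. Itgb3 in young and Lrp8 in aged mice changed sign without scaling factors.

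With 1 sample left out, 4 receptors rose and 2 to 4 fell in young mice. In aged mice 1 to 3 rose and 0 to 4 fell, so those calls were the less stable. Without the 3 samples with choroid plexus markers over 1000 CPM, 4 receptors rose and 2 fell in young mice. That refit left 1 aged ICH sample, and most receptor calls in aged mice were lost, which cannot be told apart from the smaller group. The log2FC in aged mice was then −0.17 for Cd47, −0.31 for Nlgn1 and −0.33 for Itgav. It was 0.36 for Itgb1, 0.35 for Itga6 and −0.57 for Vldlr. In young mice Nlgn1 and Vldlr fell, while Cd47 and Cacna2d1 lost their calls (edgeR, adjusted *P* = 0.0659 and 0.0615), and that of Cacna2d1 was also lost without young sham replicate 2. In the 12 refits that left out 1 sample each, Cd36, Nrros, Fn1, Adamts9, Tnc, Spp1, Cyr61 and Nos3 kept their calls at both ages. Without the 3 samples with choroid plexus markers, however, Fn1, Adamts9, Spp1, Cyr61 and Nos3 were no longer called in aged mice (edgeR, adjusted *P* from 0.0538 to 0.087). In aged mice those of Itgb1 and Nlgn1 were lost in 4 of them and that of Itga6 in 2, while Cd47 (−0.23 to −0.17) and Itgav (−0.29 to −0.19) lost theirs in 10 and 9. The call of Cd36 stood at both ages also without the samples with choroid plexus markers (1.25 and 1.87, edgeR, adjusted *P* = 0.014 and 0.0284). Over the 7 pathway lists together, 79 genes were tested, of which 21 rose and 10 fell in young and 17 rose and 9 fell in aged mice. Called in either direction were thus 39.2% and 32.9% of them, against 19.1% and 13.2% of all genes. The lists were chosen with earlier results of these data known, so their higher share is a description and no test. Without the samples with choroid plexus markers, 15 rose and 6 fell in young and 5 rose and 2 fell in aged mice. Without scaling factors the split was 24 to 7 and 18 to 4, as over all genes, where the share of called genes that were higher went from 51.7% to 73.8% in young and from 53.2% to 73.8% in aged mice. In aged mice, without aged ICH replicate 1, 10 pathway genes rose and 0 fell, and 2 fell without aged ICH replicate 3 or without either of the aged sham samples 1 and 2. None of the 79 genes was called with edgeR in either age comparison or in the interaction, where 22, 12 and 0 of all genes were called. At the unadjusted criterion of the study, applied to edgeR, 5, 2 and 1 of them were, against 3.72%, 3.52% and 1.56% of all genes.

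Of the TGF-β side, 10 genes of latent TGF-β, its carriers, activators and receptors were tested. In young mice 4 rose and in aged mice 3 rose, and none fell with edgeR, with list medians of 0.474 and 0.358. Of all genes 9.89% and 7% were called higher. Leaving out the 3 samples with choroid plexus markers, 2 rose at each age. With 1 sample left out 1 to 5 rose in young mice, the fewest without young sham replicate 2 (1) and replicate 3 (2), and 2 to 5 in aged mice, the most without young ICH replicate 3. Nrros, a carrier of latent TGF-β in microglia and macrophages, rose by 0.74 ± 0.10 in young and 0.62 ± 0.10 in aged mice (edgeR, adjusted *P* = 0.00141 and 0.00505). Lrrc32, which encodes the carrier GARP, rose by 0.73 ± 0.18 and 0.99 ± 0.18 (edgeR, adjusted *P* = 0.0181 and 0.00809). Its young call was lost without young sham replicate 2 or 3 and without the samples with choroid plexus markers (0.46, edgeR, adjusted *P* = 0.0741). Tgfb1 rose by 0.57 ± 0.16 and 0.64 ± 0.16 (edgeR, adjusted *P* = 0.0316 and 0.0249). Its call was lost in 4 of the 12 refits without 1 sample at each age, which were those without young ICH replicates 1 and 3 and young sham replicates 2 and 3 in young mice, and without aged ICH replicates 1 and 3 and aged sham replicates 1 and 2 in aged mice. It was also lost at both ages without the samples with choroid plexus markers (edgeR, adjusted *P* = 0.112 and 0.169). Tgfbr2, the ligand-binding receptor, rose by 0.59 ± 0.13 in young mice (edgeR, adjusted *P* = 0.00993) and had 0.39 ± 0.13 in aged mice (adjusted *P* = 0.0671). The young call was lost without young sham replicate 2, and the aged value was called without young ICH replicate 3.

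Of 8 TGF-β target genes, 3 rose and 2 fell in young and 3 rose and 1 fell in aged mice. Over all genes, 9.89% and 7% were called higher and 9.23% and 6.15% lower. Tgfbi, a matrix protein induced by TGF-β, rose by 1.85 ± 0.45 and 1.47 ± 0.44 (edgeR, adjusted *P* = 0.0162 and 0.0493). The call of Tgfbi was lost in 3 of the 12 refits without 1 sample in young mice (without young ICH replicate 3, young sham replicate 1 or young sham replicate 2) and in 9 of the 12 in aged mice. Fibronectin (Fn1) rose by 1.06 ± 0.18 and 0.99 ± 0.18 (edgeR, adjusted *P* = 0.00347 and 0.00795). Skil, a repressor of SMAD signaling that is itself induced by TGF-β, fell by 0.42 and 0.43 (edgeR, adjusted *P* = 0.00554 and 0.00953). Ctgf, now named Ccn2, fell by 0.50 in young mice (edgeR, adjusted *P* = 0.00533) and had −0.19 ± 0.10 in aged mice. Smad7, the feedback inhibitor, had −0.25 ± 0.11 and −0.29 ± 0.11 and was not called. The targets therefore did not move in 1 direction. When the samples with choroid plexus markers were left out, Tgfbi lost its call at both ages (edgeR, adjusted *P* = 0.0753 and 0.185), and Fn1 and Skil lost theirs in aged mice (edgeR, adjusted *P* = 0.0594 and 0.0561). The aged call of Skil was also lost without aged ICH replicate 1.

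Of 24 other proteins with thrombospondin type 1 repeats, 3 rose and 4 fell at each age, where 9.89% and 7% of all genes were called higher and 9.23% and 6.15% lower, and the list median was −0.118 in young and −0.128 in aged mice. The numbers that rose were thus near the share over all genes. The secreted proteases Adamts9 and Adamts1 rose, Adamts9 by 2.05 ± 0.28 and 1.70 ± 0.27 and Adamts1, which can cleave thrombospondin-1 and thrombospondin-2, by 1.86 ± 0.34 and 1.58 ± 0.33 (edgeR, adjusted *P* from 0.00166 to 0.0132). Cfp, the complement regulator properdin, rose by 0.40 ± 0.09 and 0.38 ± 0.09. Those that fell are membrane proteins known from neurons and axon guidance. Sema5b fell by 0.66 and 0.75 (edgeR, adjusted *P* = 0.0433 and 0.0347), and Unc5c and Adgrb3 fell at both ages by 0.34 to 0.49. Unc5d fell by 0.68 in young mice (edgeR, adjusted *P* = 0.0176) and Sema5a by 0.79 in aged mice (adjusted *P* = 0.0194). With 1 sample left out, the call of Sema5b was lost in 8 of 12 refits in young and 4 in aged mice and that of Unc5c in 4 at each age. In aged mice those of Adgrb3, Sema5a and Cfp were lost in 5, 4 and 4 refits and that of Adamts1 in 1, and in young mice that of Unc5d in 1. The refit without young ICH replicate 3 was among those of every young loss named here, and the refit without aged ICH replicate 1 among those of every aged loss. When the 3 samples with choroid plexus markers were left out, 3 rose and 1, Adgrb3, fell in young mice, and 0 rose and 1, Sema5a, fell in aged mice (−1.09, edgeR, adjusted *P* = 0.0469).

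Of 14 other matricellular genes, 5 rose and 1 fell in young mice and 4 rose and none fell in aged mice (edgeR), with list medians of 0.261 and 0.1. Over all genes, 9.89% and 7% were called higher and 9.23% and 6.15% lower. Tenascin-C (Tnc), an adhesion-modulating glycoprotein of injured tissue, rose by 2.32 ± 0.37 and 2.30 ± 0.37 (edgeR, adjusted *P* = 0.00264 and 0.00531). Osteopontin (Spp1) rose by 2.30 ± 0.36 and 1.89 ± 0.35 (edgeR, adjusted *P* = 0.00237 and 0.008). Cyr61, now named Ccn1, rose by 2.06 ± 0.29 and 1.68 ± 0.28 (edgeR, adjusted *P* = 0.00187 and 0.00617). Wisp2, now named Ccn5, rose by 1.62 ± 0.47 and 1.73 ± 0.47 (edgeR, adjusted *P* = 0.0341 and 0.0334), at under 1 CPM on average in each group. Its call was lost in 5 of the 12 refits without 1 sample in young mice, all those without a young ICH or young sham sample but young ICH replicate 2. In aged mice it was lost in 4, without aged ICH replicates 1 and 2 and aged sham replicates 1 and 3. Without the samples with choroid plexus markers Wisp2 was 1.40 in young and 0.49 in aged mice (edgeR, adjusted *P* = 0.0732 and 0.692). The gene that fell, in young mice, was Ctgf. Tnxb also rose in young mice, but its call was lost in 10 of the 12 refits without 1 sample (0.46 to 0.96 over all 12). With 1 sample left out, 3 to 6 genes of the list rose in young and 3 to 4 in aged mice. Without the 3 samples with choroid plexus markers, 3 rose in young mice and 1, Tnc, in aged mice (2.42, edgeR, adjusted *P* = 0.0355).

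None of the 5 other synapse factors of astrocytes (Gpc4, Gpc6, Chrdl1, Sparc and Sparcl1) was called with edgeR at either age, and Sparc was nearest in young mice at 0.73 ± 0.24 (adjusted *P* = 0.0515). With 1 sample left out, 0 to 1 were called higher and 0 to 1 lower in young mice, and 0 to 1 lower in aged mice. Beside this list and the next, 9.89% and 7% of all genes were called higher in young and aged mice, and 9.23% and 6.15% lower. Of 7 genes of VEGF and nitric oxide signaling, which thrombospondin-1 inhibits through CD36 and CD47, Nos3 rose by 0.94 ± 0.11 and 0.57 ± 0.11 (edgeR, adjusted *P* = 0.00108 and 0.00877). Gucy1b1, a subunit of the nitric oxide receptor, fell by 0.52 and 0.44 (edgeR, adjusted *P* = 0.00749 and 0.022). Flt1, a VEGF receptor, rose by 0.40 ± 0.12 in young mice (edgeR, adjusted *P* = 0.037) and had 0.08 ± 0.12 in aged mice. The young call of Flt1 was lost in 6 of the 12 refits without 1 sample, which were those without any of the young ICH samples, young sham replicates 2 and 3 or aged sham replicate 3, and without the samples with choroid plexus markers (0.36, edgeR, adjusted *P* = 0.104). Without the latter the aged value of Flt1 was −0.11, and neither Nos3 nor Gucy1b1 was called in aged mice (edgeR, adjusted *P* = 0.087 and 0.172). The aged call of Gucy1b1 was also lost without aged ICH replicate 1 or aged sham replicates 1 or 2. Vegfa itself had −0.20 ± 0.09 and −0.17 ± 0.09 and was not called.

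Markers of some cells that can carry thrombospondins differed between the same groups as Thbs1 did, and others did not. The summed markers of fibroblasts and smooth muscle overlapped between sham and ICH samples at both ages. Those of resting astrocytes ran lower in aged ICH samples, at 4599 to 5170 CPM, than in aged sham samples, at 5375 to 5860. Beside the counts of markers below, 9.89% of all genes were called higher and 9.23% lower in young mice. In aged mice 7% were called higher and 6.15% lower. All 10 markers of reactive astrocytes rose at both ages, and their summed level was 826 to 1181 CPM in young sham, 2617 to 3959 in young ICH, 626 to 1578 in aged sham and 2813 to 3535 in aged ICH samples. Aged sham replicate 2, the aged sham sample with the least Thbs1, was the one at 626 CPM. Of 10 markers of infiltrating monocytes and macrophages, 6 rose at each age. Their sums were 151 to 166 CPM in young sham, 312 to 399 in young ICH, 129 to 248 in aged sham and 337 to 419 in aged ICH samples, and aged sham replicate 2 was again the lowest and replicate 3, with the most Thbs1 of its group, the highest. Other lists had another order in the aged sham samples. The neutrophil sum was lowest in replicate 1 and the platelet sum was highest in replicate 2. Of 8 neutrophil markers tested, of 11 listed, 6 rose in young and 5 in aged mice, and the sums over all 11 were 10.3 to 12.7, 19.8 to 36.3, 14.6 to 26.1 and 37.3 to 53.4 CPM in the same order of groups.

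Platelet markers were low. Of 12 listed, 6 were tested, and 3 rose in young and 2 in aged mice. For this and the following lists, 9.89% and 7% of all genes were called higher and 9.23% and 6.15% lower. Pf4 rose by 1.79 ± 0.24 and 1.56 ± 0.23 and Itga2b by 1.17 ± 0.20 and 0.93 ± 0.19 (edgeR, adjusted *P* from 0.00166 to 0.0125). The sum over the 12 genes was 5.75 to 7.00 CPM in young sham, 8.85 to 12.02 in young ICH, 7.38 to 8.13 in aged sham and 10.7 to 15.6 in aged ICH samples. Gp1bb was at 0 in all young sham, young ICH and aged sham samples, and aged ICH was the only group with counts of it. Gp6 was at 0 in both young groups. Of 8 endothelial markers, 6 rose in young and 4 in aged mice, and of 8 fibroblast and 5 smooth muscle markers 1 each rose at each age, which were Dcn and Des. Of 9 markers of resting astrocytes, 3 rose in young mice, and 1 rose and 2 fell in aged mice. Of 6 microglia markers 2 fell at each age. Of 6 neuroblast markers, Sox11 rose and Dcx fell in young mice. No marker of the choroid plexus, ependyma, striatal neurons or cortical neurons was called at either age with edgeR, while the median log2FC of the choroid plexus markers was 2.178 and 3.158. That of the striatal neuron markers was −0.952 and −1.127. In aged mice 7 striatal neuron markers were called lower without aged ICH replicate 2, and 4 choroid plexus markers higher without young ICH replicate 3. In young mice 1 striatal neuron marker was called lower without aged ICH replicate 2, and 2 cortical neuron markers without young ICH replicate 2. Without the 3 samples with choroid plexus markers over 1000 CPM, 9 reactive astrocyte and 5 monocyte and macrophage markers rose in young mice. So did 6 neutrophil, 6 endothelial and 2 platelet markers. Most marker calls in aged mice were lost in that refit, which left 1 aged ICH sample. These losses cannot be told apart from the smaller group. In young mice 0 neuroblast markers were then called, and 1 marker each of the choroid plexus and striatal neurons was called lower. With 1 sample left out, 5 to 10 reactive astrocyte, 2 to 6 monocyte and macrophage, 1 to 7 neutrophil and 2 to 4 endothelial markers rose in aged mice, and each of these counts fell by over 1.5 times without aged ICH replicate 1. The part of these cells in the Thbs1 level was not tested.

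**Figure D5:**
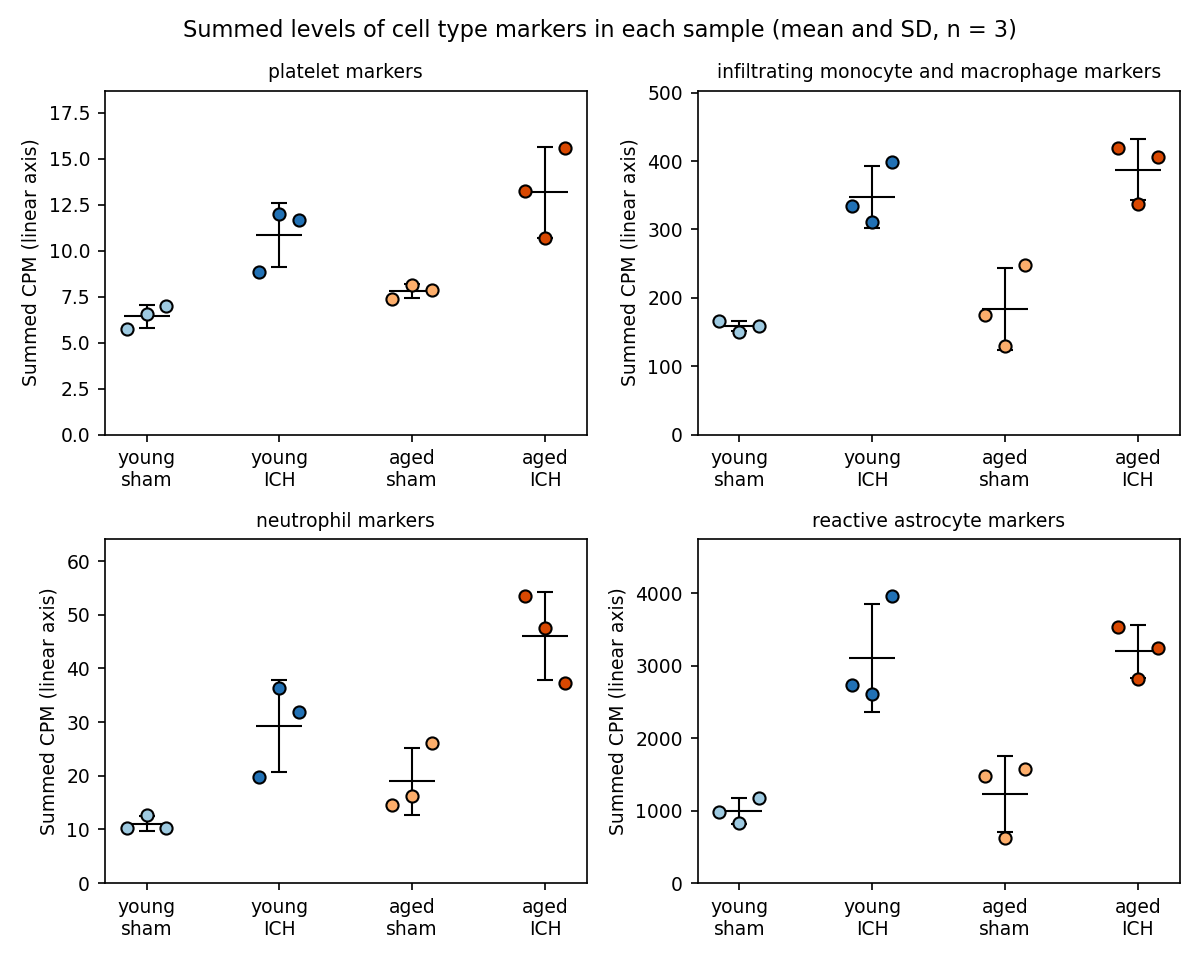
Summed CPM (linear axes from 0) of markers of platelets, infiltrating monocytes and macrophages, neutrophils and reactive astrocytes in every sample. Points are samples, and the bar with whiskers is the mean and SD (n = 3). In each panel the ICH samples of an age were above its sham samples, and platelet sums stayed at or below 15.6 CPM. That order was seen for 18.5% of single genes in young and 17.8% in aged mice. Sums of fibroblast, smooth muscle and microglia markers, which are not drawn, overlapped between sham and ICH samples at both ages.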

How the data were processed

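Perihematomal RNA from 12 mouse samples was analysed, grouped by the age and surgery in the labels, with 0 sample columns left unmapped. According to the labels and the methods, the authors prepared libraries with NEBNext Ultra, aligned reads with HISAT2 to GRCm38.p6, counted them with featureCounts and deposited raw counts and FPKM per gene. Strand setting and treatment of multiply aligned reads are not given in the sources used here. Deposited columns of the authors' comparisons (fold changes and p-values) were not used.

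Counts were tested with edgeR 4.0.16 (quasi-likelihood, TMM, R 4.3.3) in one fit of 4 groups, after filterByExpr with a minimum count of 10. Calls were Benjamini-Hochberg adjusted *P* under 0.05 over all genes. CPM are counts per normalized library size, and log2 CPM used a prior count of 2. The interval of each log2FC used the moderated degrees of freedom. Deposited FPKM served for levels between genes. The depth of 28410896 to 37785160 counts left 14946 genes without a count. Replicates are separate samples by label, and all pairs differed by more than sampling noise.

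Gene positions came from GENCODE vM21 (GRCm38). The scripts were tested on simulated data. Alternatives were DESeq2 1.42.0, limma 3.58.1, other scaling, no filter, the replicate block, single comparisons, leaving out each sample, and the criterion of the study. The members, the 7 pathway lists and the 14 marker lists were chosen with earlier results of these data known. Named were all members, all receptors, up to 4 called genes per other list with the largest log2FC or alone in their direction, markers discussed, and the 5 genes most like each member with an SD over 0.5. One gene that this rule names is not reported here. Comp, Tnxb, Smad7, Vegfa, Sparc, Cfp, Adgrb3, Unc5c and Unc5d were named after their values were seen.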

Additional observations from a re-analysis of the deposited data

How the results depend on the processing

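Most thrombospondin values kept their direction and their side of the threshold. The rise of Thbs1 after ICH was 4.07 to 4.49 in young and 3.17 to 4.10 in aged mice on the log2 scale when 1 sample was left out, and 2.91 in young mice with limma on log2(FPKM + 1), where the pseudocount lowers the value of a low group. When 1 sample was left out, the calls that ended stood at 0.65 to 0.67 (Thbs2, aged) and at 0.40 to 0.46 (Thbs3, young). Over all such refits these values ran from 0.65 to 1.0 and from 0.40 to 0.59. Without the 3 ICH samples with choroid plexus markers over 1000 CPM, an alternative chosen after seeing the data that leaves 1 aged ICH sample, assumed to vary like the other groups, Thbs2 in aged mice was 0.79 and Thbs3 in young mice 0.40, both no longer called. Under it Thbs4 in aged mice turned to −0.09, Thbs3 in aged ICH vs. young ICH to 0.06, the interactions of Thbs2 and Thbs3 to 0.016 and 0.09, and Lrp1 and Calr in young mice to −0.022 and −0.11 and Flt1 in aged mice to −0.11. With the unadjusted criterion of the study applied to edgeR in place of its DESeq2, Thbs3 in young mice (0.49) was not a DEG. Thbs1 was one in aged sham vs. young sham (1.56) and aged ICH vs. young ICH (0.84, edgeR, unadjusted *P* = 0.045). Thbs3 in aged sham vs. young sham turned to 0.022 without scaling factors and 0.016 with limma, and the Thbs1 interaction to 0.13 with limma. Without scaling factors Itgb3 in young mice was 0.07, Lrp8 in aged mice 0.018 and Tnxb in aged mice 0.044, and with limma Itgb3 was 0.035 and Lrp8 0.014. Apart from the scaling and the pseudocount, whose effect on low values follows from their construction, the cause was not tested.

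Leaving out 1 sample gave reversals among values near 0. Thbs4 in young mice ranged from −0.09 to 0.48 and its interaction from −0.25 to 0.33, the Thbs2 interaction from −0.13 to 0.22, and Thbs3 in aged sham vs. young sham from −0.13 to 0.07. In young mice Calr ranged from −0.11 to 0.17, Itga4 from −0.041 to 0.16 and Lrp1 from −0.03 to 0.07. In aged mice Flt1 ranged from −0.0035 to 0.17, Itgb3 from −0.05 to 0.35, Lrp1 from −0.028 to 0.12, Lrp8 from −0.12 to 0.0084 and Tnxb from −0.17 to 0.09. Of the pathway genes that fell in young mice, 10 by edgeR, 6 remained as a count without the choroid plexus samples and 5 by the study criterion. In aged mice 17 rose, against 5 without the choroid plexus samples and 10 to 20 with 1 sample left out. In aged mice 9 fell, against 4 without scaling factors, 4 with limma, 4 in a fit of the 6 samples alone, 2 without the choroid plexus samples, 3 by the study criterion and 0 to 11 with 1 sample left out.

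Over all genes, called genes in aged ICH vs. aged sham went from 2828 to 679 without aged ICH replicate 1 and to 431 without the choroid plexus samples, and in young ICH vs. young sham from 4110 to 1858 without young sham replicate 2. In aged sham vs. young sham 22 genes were called by edgeR, 77 without a filter and 280 by DESeq2, and in aged ICH vs. young ICH 12, 61 and 189. Replicate numbers in the labels did not pair the samples: 18 same-numbered pairs had correlations of −0.454 to 0.235, and 1 of 12 samples correlated best with its own number. A fit with the replicate block called 3502 genes in young ICH vs. young sham and 2464 in aged ICH vs. aged sham, 12 and 8 between ages, and moved the Thbs2 interaction to 0.0035.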
